A study of Mus musculus with 6 samples.

Results

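Transcripts of 10 genes of bone morphogenetic protein (BMP) signalling were followed in 6 mouse cells. The genes are the ligands Bmp2, Bmp4 and Bmp7, the receptors Bmpr1a and Bmpr2, the transducer Smad1, and the target genes Id1, Id2, Id3 and Id4. They were chosen by name, and all 10 were found among the 44804 rows of the deposited table that carry an unrepeated gene name. The cells came from 3 mice, labelled 1157, 1168 and PDGF1. From each mouse there is 1 circulating tumor cell (CTC), which is a cancer cell found in blood, and 1 tumor cell, whose column names carry the letters GBM. Cells are called by their mouse, such as the 1168 CTC. The labels state no strain, age, treatment or tumor-forming allele, and they call the CTCs but not the tumor cells single. The mice are the only replicates, so n is 3 cells per group throughout.

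BMP ligands are secreted proteins that bind a pair of type I and type II receptor kinases. The type I receptor phosphorylates Smad1 and its relatives, which enter the nucleus with Smad4 and switch on target genes, among which the Id genes are the classic direct targets. Id proteins have a helix-loop-helix but no DNA-binding region. They pair with E proteins and so keep basic helix-loop-helix (bHLH) factors such as Olig2 off DNA. In the neural lineage, BMP signalling favours astrocytes over oligodendrocytes, and Id genes are expressed in neural stem cells and glioma cells.

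The promoters are shown because the Id genes are read out by Smad proteins at their control regions. RefSeq promoters on GRCm38.p6 were found for 7 of the 10 genes, and the 250 bases before the transcription start were searched on both strands. No promoter was available for Id1, Bmp2 or Bmp7, so these genes were not searched. The palindrome GGCGCC, a GC-rich motif of BMP-responsive elements, was found once in each of 4 of them. It was present in 9.59% of 32851 promoters of the same length, and in 26.1% of the 9178 promoters with at least 60% G and C. The 7 promoters themselves held 62.8% to 78.8% G and C. The 30 bases around each palindrome are printed 5′ to 3′ with the motif in capitals, at chr12:25096306-25096335 (minus strand) for Id2, chr13:48260956-48260985 (plus) for Id4, chr14:34502727-34502756 (minus) for Bmpr1a and chr1:59764162-59764191 (plus) for Bmpr2.
Id2: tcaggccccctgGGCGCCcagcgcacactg
Id4: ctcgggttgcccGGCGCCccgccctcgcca
Bmpr1a: tgcgcgcgcgccGGCGCCtcttgctcgccc
Bmpr2: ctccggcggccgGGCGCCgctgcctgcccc

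The motif began 231 bases before the start in Id2, 148 in Id4, 198 in Bmpr1a and 105 in Bmpr2. In GENCODE M21 the windows of Id2, Bmpr1a and Bmpr2 lie within the annotated gene, which starts farther upstream, and that of Id4 lies before it. Id3 had no GGCGCC in this window. It held the short Smad motif GTCT at 2 places, 166 and 68 bases before the start, the first on the opposite strand. That motif was in 82.9% of all promoters, in 75% of those with at least 60% G and C, and in 3 of the 7. The stretches of Id3, at chr4:136143643-136143672 and chr4:136143741-136143770 (plus strand) and within the annotated gene, have GTCT or its reverse complement in capitals.
Id3, farther site: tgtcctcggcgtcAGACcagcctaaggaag
Id3, nearer site: tggacccttggcgGTCTgttttgaataagg

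Values were in FPKM, a share of the sequenced fragments scaled by transcript length. The 2 cells of mouse 1168 stood apart from the other 4, with 9702 and 11239 rows at 1 FPKM or more in CTC and tumor cell, against 1486 to 4078 elsewhere. The steps between low values gave an estimate of depth relative to the 1168 CTC. It ran from 0.365 in the 1157 tumor cell, the shallowest, to 1.79 in the 1168 tumor cell, the deepest. For mouse PDGF1 it was 1.36 (CTC, 1486 rows) and 1.3 (tumor cell, 3025 rows). Both thus exceeded the 1168 CTC in depth yet had fewer rows at 1 FPKM or more. The 1157 CTC, with 2870 rows, was at 0.861. The part of depth in the row counts was not tested. Fragments here are amplified copies and not independent molecules. Glioma and neural stem cell markers, 3 in all, summed to 737 and 941 FPKM in the CTC and tumor cell of mouse 1168 and to 0.694 to 5.35 FPKM elsewhere. Vim made up most of both sums in mouse 1168, at 586 FPKM in the CTC and 870 FPKM in the tumor cell. The other markers were higher in the CTC there, Sox2 at 129 against 64.8 FPKM and Nes at 21.4 against 6.56 FPKM. As a background level, the 99th percentile of 1426 smell and pheromone receptor genes (the Olfr and Vmnr families) was taken in each cell. It was lowest in the 1168 CTC, at 0.128 FPKM, and highest in the PDGF1 tumor cell, at 7.14 FPKM.

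At this level, BMP and Id transcripts were above background mainly in mouse 1168. There, 7 of the 10 genes exceeded it in the CTC, and 6 of 10 did in its tumor cell. In the same cells 29.1% and 23.2% of all rows exceeded it. In the 1157 CTC the genes above background were Id2, Bmpr2 and, barely, Id3, 3 of 10 where 8.1% of all rows were. None of the 10 exceeded it in the 1157 tumor cell, where the level was 1.99 FPKM, or in either cell of mouse PDGF1. Of all rows, 4.43% exceeded it in the 1157 tumor cell, 1.74% in the PDGF1 CTC and 1.17% in the PDGF1 tumor cell. The count depends on the percentile. With the 95th, chosen after seeing the data, 8 of 10 exceeded it in the 1157 CTC, as many as in the 1168 CTC, where 23.6% and 34.6% of all rows did. The tumor cells then had 5 in mouse 1157 and 9 in mouse 1168, at 17.9% and 30.1% of all rows, and mouse PDGF1 had 3 in its CTC and 1 in its tumor cell, at 13.5% and 6.77%. Background below means the 99th percentile. Values under it are not told from background here, whichever way they differ. Of 7 housekeeping genes, 7 exceeded it in each cell of mouse 1168 and 6 in the 1157 CTC. Their count was 3 in the 1157 tumor cell, 1 in the PDGF1 tumor cell and 0 in the PDGF1 CTC. Low counts of the 10 genes in those cells are therefore not read as absence of their transcripts.

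**Figure D1:**
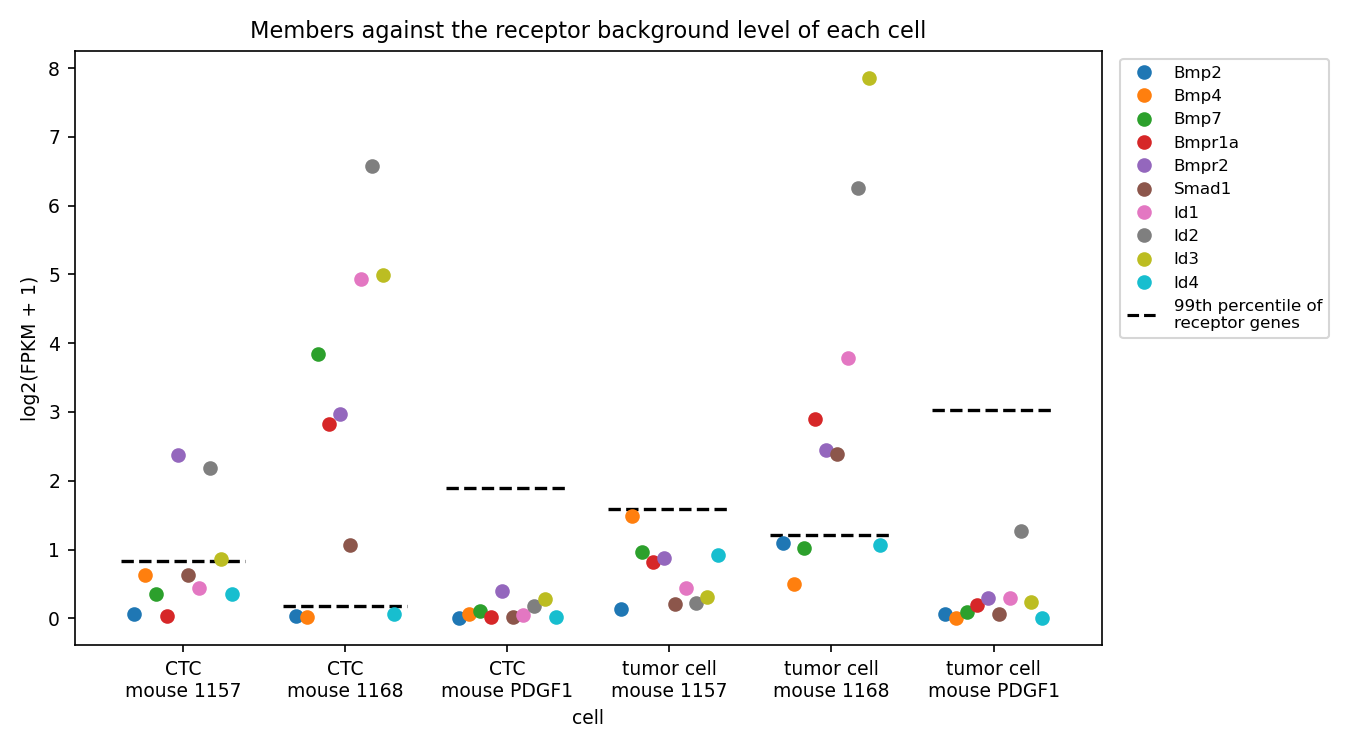
Level of the 10 genes in each of the 6 cells, as log2(FPKM + 1) on the vertical axis, with its background level, the 99th percentile of smell and pheromone receptor genes, as a dashed line. In mouse 1168, 7 genes lie above the line for the CTC and 6 for its tumor cell, and in both cells of mouse PDGF1 no gene does.

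Among the ligands, Bmp7 was the one with a level well above background. Bmp7 (chr2:172868012-172940321, minus strand, GRCm38), a ligand of the developing kidney, eye and brain, had CTC values of 0.274, 13.3 and 0.0734 FPKM in mice 1157, 1168 and PDGF1, and tumor cell values of 0.946, 1.03 and 0.0617 FPKM. Only the 1168 CTC stood high, and the groups overlapped. The value in the tumor cell of the same mouse lay under its background level of 1.33 FPKM.

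Bmp2 (chr2:133552159-133562885, plus strand), a ligand of bone and heart formation, was at 0.0433, 0.0188 and 0.00690 FPKM in the CTCs and at 0.102, 1.14 and 0.0432 FPKM in the tumor cells, in the same order of mice. No value exceeded the background of its cell. The groups came close to separating, since the highest CTC value, in mouse 1157, lay just above the lowest tumor cell value, in mouse PDGF1. Bmp2 has 1 annotated transcript of 3555 bases, so its values could be turned into estimated fragments: 3.99, 2 and 1 in the CTCs and 3.97, 217 and 6.02 in the tumor cells. In mouse 1157 the CTC and the tumor cell thus held about the same few fragments at different depths, and only the 1168 tumor cell held many. Bmp4 (chr14:46383520-46390669, minus strand), a ligand of early patterning, was at 0.552, 0.0169 and 0.0496 FPKM in the CTCs and at 1.82 and 0.420 FPKM in the tumor cells of mice 1157 and 1168. It was listed at 0 in the PDGF1 tumor cell and was under background in all 6 cells.

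The receptors were at similar levels in both cells of mouse 1168. Bmpr2 (chr1:59763400-59879014, plus strand), the type II receptor, was at 4.19, 6.83 and 0.310 FPKM in the CTCs and at 0.839, 4.45 and 0.232 FPKM in the tumor cells. It was higher in the CTC of all 3 mice, by 1.54 times in mouse 1168, though the groups overlapped. The values in the 1157 tumor cell and in both cells of mouse PDGF1 were under background. Bmpr1a (chr14:34410734-34503341, minus strand), a type I receptor, was at 0.0189, 6.09 and 0.0161 FPKM in the CTCs and at 0.763, 6.43 and 0.143 FPKM in the tumor cells. It was lower in the CTC of all 3 mice, by little in mouse 1168, and outside that mouse every value was under background. Its exons overlap a gene on the other strand, as do those of Bmp4 and Id4, and whether counting used the strand is not stated.

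The transducer Smad1 (chr8:79338395-79399518, minus strand) was at 0.552, 1.10 and 0.0147 FPKM in the CTCs and at 0.159, 4.22 and 0.0417 FPKM in the tumor cells. In mouse 1168 it was above background in both cells and 3.84 times higher in the tumor cell. In mouse 1157 the order was the other way, at values under background.

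Id1, Id2 and Id3 had the highest levels of the 10 genes in both cells of mouse 1168. Id2 (chr12:25093799-25097140, minus strand), which is widely expressed in the brain, was at 3.53, 94.1 and 0.129 FPKM in the CTCs and at 0.163, 75.6 and 1.42 FPKM in the tumor cells. It was high in both cells of mouse 1168, which differed by 1.24 times, and was above background in the 1157 CTC. In the 1157 tumor cell and in mouse PDGF1 it was under background. In mouse 1168 its level exceeded that of 90.8% of rows at 1 FPKM or more in the CTC and of 92.7% in the tumor cell.

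Id3 (chr4:136143497-136145755, plus strand), a BMP target that is also high in endothelial cells, was at 0.814, 30.9 and 0.214 FPKM in the CTCs and at 0.243, 231 and 0.179 FPKM in the tumor cells. The 1168 tumor cell had the highest value of any of the 10 genes, 7.48 times that of the CTC of the same mouse and above 97.2% of its rows at 1 FPKM or more. In the other 2 mice the CTC had the higher value, which exceeded background in mouse 1157 alone, at 0.814 against 0.773 FPKM. Id1 (chr2:152736251-152737410, plus strand), the closest relative of Id3 in its response to BMP, was at 0.352, 29.7 and 0.0312 FPKM in the CTCs and at 0.363, 12.8 and 0.229 FPKM in the tumor cells. In mouse 1168 it was 2.31 times higher in the CTC, so Id1 and Id3 differed in opposite directions there.

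Id4 (chr13:48261228-48266026, plus strand), a regulator of neural stem cells, was at 0.281, 0.0432 and 0.0158 FPKM in the CTCs and at 0.890, 1.10 and 0 FPKM in the tumor cells. It did not exceed background in any cell. In FPKM, which is scaled by length, the order in the 1168 CTC was Id2, Id3, Id1, Bmp7, Bmpr2, Bmpr1a and Smad1, with Id4, Bmp2 and Bmp4 under background. In the tumor cell of that mouse it was Id3, Id2, Id1, Bmpr1a, Bmpr2 and Smad1. With 1 cell of each kind no spread is known for neighbours in these orders, and those that lie close, such as Id3 and Id1 in the CTC or Bmpr2 and Smad1 in the tumor cell, cannot be ranked.

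**Figure D2:**
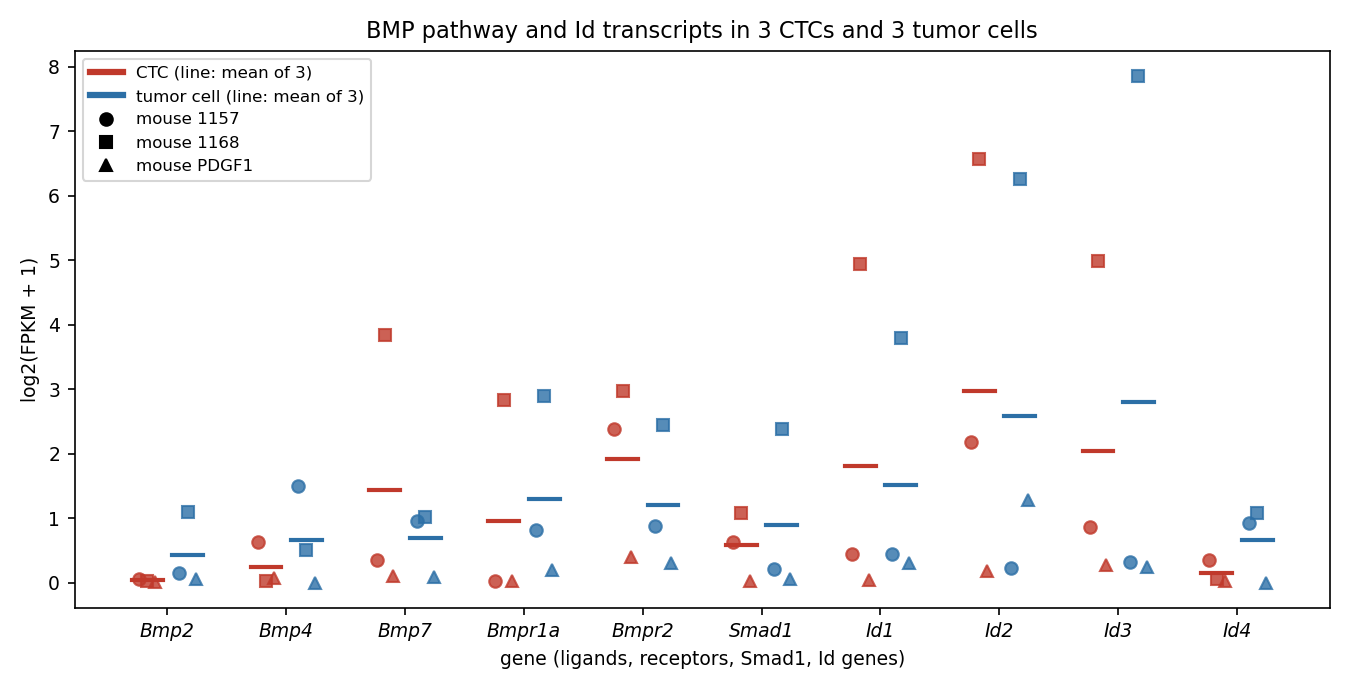
Level of each of the 10 genes as log2(FPKM + 1), with CTCs in red, tumor cells in blue, a marker shape for each mouse and a line at the mean of the 3 cells. For Id1, Id2 and Id3 the squares of mouse 1168 lie far above the other cells of both groups, and for every gene the groups overlap.

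Over the 3 mice, CTCs were compared with tumor cells. None of the 10 passed a test. On the log2(FPKM + 1) scale, on which changes of low genes look smaller than they are, the CTC mean of Id2 was 2.98 ± 3.27 (SD, n = 3) and its tumor cell mean was 2.58 ± 3.23 (SD, n = 3). The means of Id3 were 2.04 ± 2.57 (SD, n = 3) and 2.80 ± 4.38 (SD, n = 3). Those of Id1 were 1.81 ± 2.72 (SD, n = 3) and 1.51 ± 1.97 (SD, n = 3). For Id1, Id2 and Id3 the SD of each group exceeded the difference. These SDs include the gap between mouse 1168 and the other mice, which both groups share, so they do not measure the spread of within-mouse differences. For Id4 the means were 0.15 ± 0.18 (SD, n = 3) and 0.66 ± 0.58 (SD, n = 3), so the difference of -0.52 lay between the SDs in size. Over the 10 genes differences lay between -0.76 for Id3 and 0.74 for Bmp7, CTC minus tumor cell. Each of the 10 genes had a two-sided exact permutation test, which did not pair the cells of a mouse. In it p was 0.2 for Bmp2 and between 0.4 and 0.9 for the others, and 3 cells against 3 cannot give a p below 0.1.

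The fit across genes took those that reached 1 FPKM in no fewer than 3 cells, which of the 10 left Id2 and Bmpr2. Id2 differed by 0.39 (SE 2.72, adjusted p = 0.9999, limma) and Bmpr2 by 0.70 (SE 1.50, adjusted p = 0.9999, limma). Of the 4165 genes tested, 0 passed the threshold, 0%, and 7 had an unadjusted p under 0.05 in limma, all lower in CTCs. This fit did not pair the cells of a mouse, so the spread between mice counted as error. With the mouse as a block 1 gene passed, which is not one of the 10. That fit gave 217 genes with an unadjusted p under 0.05 (limma), 108 of them higher in CTCs. The direction of the 7 is therefore not read as a result. The direction of Id2 rested on single libraries: the difference was -1.41 without the 1168 CTC, -0.79 without the 1157 tumor cell and -0.26 without that of mouse PDGF1.

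Nor did the groups separate for any of the 10. Over all rows that reached 1 FPKM in a cell, all 3 CTCs lay above all 3 tumor cells in 0.296% and below them in 2.89%. The direction within mice was the same in all 3 for Bmpr2, higher in the CTC, and for Bmp2 and Bmpr1a, lower in the CTC. That is 1 and 2 of 10 genes, against 3.51% and 12.5% of all rows with a value. Outside mouse 1168, the value of Bmpr2 in the 1157 CTC was the only one of these above background.

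By level and pattern, the genes most like Id2 were Nap1l1, a histone chaperone, Csnk1a1, a casein kinase, and Psmd12, a proteasome subunit. Likeness was the mean absolute difference of log2(FPKM + 1) over the 6 cells among 3684 named genes, and it was 0.27, 0.27 and 0.28. In mouse 1168, Nap1l1 was at 87.4 FPKM in the CTC against 83.0 FPKM in its tumor cell. In the 1157 CTC it was at 2.28 FPKM, and the other cells held less than 1. The genes most like Bmpr2 were Ylpm1 at 0.20, Pcgf3, a Polycomb subunit, at 0.22 and Terf2, a telomere protein, at 0.24.

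The second comparison set the CTC against the tumor cell within each mouse, where there is no replicate and no test. In mouse 1168, 9 of the 10 genes reached 1 FPKM in either cell. Bmp7 and Id1 had log2 differences of 1 or more, at 2.82 and 1.15, with the CTC higher. Lower by at least 1 were Id3 at -2.86, Smad1 at -1.31, Bmp2 at -1.07 and Id4 at -1.01. That is 2 of 9 higher and 4 of 9 lower, against 22.7% higher and 24.9% lower among the 12396 rows measured in this mouse. Id2, Bmpr1a and Bmpr2 differed by 0.31, -0.07 and 0.52. Bmp2 and Id4 reached 1 FPKM in the tumor cell only, so their direction followed from that cut-off. Their values were also under background in both cells, so they are not read as lower. Of the 4, this leaves Id3 and Smad1.

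Markers of other cell types also differed between both cells of mouse 1168. Of all rows measured there 22.7% were higher and 24.9% lower in the CTC by at least 1. Of 8 microglia and macrophage markers, 7 reached 1 FPKM in either cell, 3 of them in the CTC. All 7 were lower in the CTC by 1 or more, with a summed level of 222 FPKM in the CTC against 2271 FPKM. Their adaptor gene Tyrobp was at 28.4 and 346 FPKM. Of 7 endothelial markers, 3 exceeded background in the CTC and 3 in its tumor cell, none at 1 FPKM in the CTC, and the sums were 0.751 and 11.1 FPKM. Of these markers, Cdh5, a cadherin of vessels, was at 0.0249 and 4.69 FPKM, while Cldn5, a junction protein of brain vessels, was listed at 0 in both. Leukocyte markers summed to 1.24 and 253 FPKM, and pericyte and fibroblast markers to 2.60 and 46.2 FPKM. Of the latter, 5 were measured, and 4 had lower values in this CTC by 1 or more, while Rgs5 was higher, at 2.58 against 0.455 FPKM. Those 4 reached 1 FPKM in the tumor cell only, so their direction followed from that cut-off. Oligodendrocyte progenitor markers, 5 in all and Olig2 among them, were higher in the CTC in 4 of 5, with Sox10 the exception, and had sums of 99.1 and 32.5 FPKM. Of 4 platelet markers Itga2b was higher there, at 68.0 against 6.09 FPKM, while Pf4, Ppbp and Gp9 were at most at 0.0822 FPKM in either cell. Erythroid markers, 4 in all, summed to at most 0.201 FPKM in any cell. Over the 3 mice endothelial sums ran from 0.751 to 1.43 FPKM in CTCs and from 3.02 to 11.1 FPKM in tumor cells, with none of the 7 above background outside mouse 1168, and the microglia and macrophage sums from 1.93 to 222 FPKM in CTCs and from 10.8 to 2271 FPKM in tumor cells. The part of these cell types in the level of Id3, Smad1 or Bmp7 was not tested, nor was whether the 1168 tumor cell library held RNA of more than 1 cell.

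In mouse 1157, 3 of the 10 genes reached 1 FPKM. Id2 and Bmpr2 were higher in the CTC by 1.96 and 1.50, 2 of 3 genes against 29.0% of 5961 rows, and 0 of 3 were lower by at least 1 against 37.1%. Bmp4 differed by -0.86, with its higher value under background. Each of these 3 genes reached 1 FPKM in 1 cell only, so its direction followed from that cut-off. In mouse PDGF1 only Id2 reached 1 FPKM, in the tumor cell alone, which fixed its direction, and it differed by -1.10. That is 1 of 1 lower, where 59.9% of 4042 rows were lower by at least 1, and 0 of 1 higher, where 23.7% were. The median row of that mouse differed by -1.18, and the value of Id2 in its tumor cell, 1.42 FPKM, was far under the background of 7.14 FPKM.

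The rest of the pathway was covered by 54 genes in 6 lists, of which 25 exceeded background in the 1168 CTC, and in its tumor cell 20 did. In the other mice 11 did in the 1157 CTC, 2 in the PDGF1 CTC and 1 in each tumor cell. The shares of all rows above background were 29.1% and 23.2% in these cells of mouse 1168, 8.1% in the 1157 CTC, 1.74% in the PDGF1 CTC, and 4.43% and 1.17% in the tumor cells of mice 1157 and PDGF1. In the fit across genes 12 of the 54 were tested and 0 passed in either direction (limma). Of these, 6 were above 0 and 6 under it, and the median was 0.00 against -0.06 over all genes tested.

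Among 11 other BMP and GDF ligands none reached 1 FPKM in mouse 1168. The most abundant elsewhere was Bmp8a, a ligand of germ cells and brown fat, at 27.1 FPKM in the 1157 CTC and at most 0.400 FPKM in the other 5 cells. Of 9 other receptors and co-receptors, 4 were measured in mouse 1168, with 0 higher and 1, Rgma, lower by at least 1, where 22.7% and 24.9% of all measured rows were. Rgma reached 1 FPKM in the tumor cell only, which fixed its direction. The type I receptor Acvr1 was at 2.50 FPKM in the CTC there and at 5.28 FPKM in its tumor cell. In mouse PDGF1 it was at 2.48 and 2.71 FPKM, under background. Of the other 3 Smads, the shared partner Smad4 was at 0.841, 6.05 and 0.00727 FPKM in the CTCs and at 0.242, 11.8 and 15.2 FPKM in the tumor cells, with the last value above the background of mouse PDGF1. Smad5, a close relative of Smad1, had 3.46 FPKM in the 1168 CTC and 3.97 FPKM in its tumor cell.

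Secreted antagonists and modulators of BMP, 17 in all, held 7 measured genes in mouse 1168, of which 0 were higher and 4 lower in the CTC by at least 1, with a median of -1.03. Over all rows measured there 22.7% were higher and 24.9% lower, and the median was 0.04. The 4 were Nog, which encodes noggin, at 0.0211 against 2.41 FPKM, Grem1, which encodes gremlin, listed at 0 against 1.39 FPKM, Dand5 at 0.0228 against 1.37 FPKM and Fstl3 at 0.0234 against 1.09 FPKM. In the tumor cell Nog, Grem1 and Dand5 exceeded the background of 1.33 FPKM and Fstl3 did not. All 4 reached 1 FPKM in the tumor cell only, so their direction followed from the cut-off for measured genes. Neither their count nor the median is read as a result. The most abundant of the list were Twsg1, which binds BMP in complex with chordin, at 14.8 against 12.4 FPKM, and Nbl1, a BMP antagonist, at 10.5 against 15.2 FPKM. Twsg1 was also at 5.43 FPKM in the 1157 CTC, against 0.155 FPKM in its tumor cell.

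Of 9 feedback inhibitors and other BMP targets, 6 were measured in mouse 1168, with 0 higher and 3 lower by at least 1, where 22.7% and 24.9% of all measured rows were. Their median was -0.96, against 0.04 over those rows. The ubiquitin ligase gene Smurf2 was at 2.10 FPKM in the CTC against 5.32 FPKM, Atoh8 at 0.424 against 2.01 FPKM and the homeobox gene Msx1 was listed at 0 against 2.66 FPKM. Atoh8 and Msx1 reached 1 FPKM in the tumor cell only, so their direction followed from the cut-off for measured genes. Of the inhibitory Smads, Smad7 was at 1.16 against 0.665 FPKM and Smad6 at 0.261 against 0.153 FPKM. Both tumor cell values were under background, so no direction is read from them.

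Of 5 bHLH genes whose products Id proteins bind or hold back, 4 were higher in the 1168 CTC, 2 of them by at least 1, and Tcf3 was lower, with a median of 0.69. Of all measured rows 22.7% were higher by at least 1, and their median was 0.04. The oligodendrocyte lineage factor Olig1 was at 199 FPKM in this CTC and at 138 FPKM in its tumor cell, and Olig2 at 42.5 and 10.3 FPKM. The E protein genes Tcf4 and Tcf12 were at 89.4 and 38.3 FPKM against 55.2 and 11.7 FPKM. Tcf4 and Tcf12 were also the 2 genes above background in the PDGF1 CTC, at 8.31 and 3.83 FPKM. Over the 3 mice 4 of these genes were tested, all 4 above 0 with a median of 0.86, and 0 passed (limma). Of all 4165 genes tested 1962 were above 0, with a median of -0.06.

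**Figure D3:**
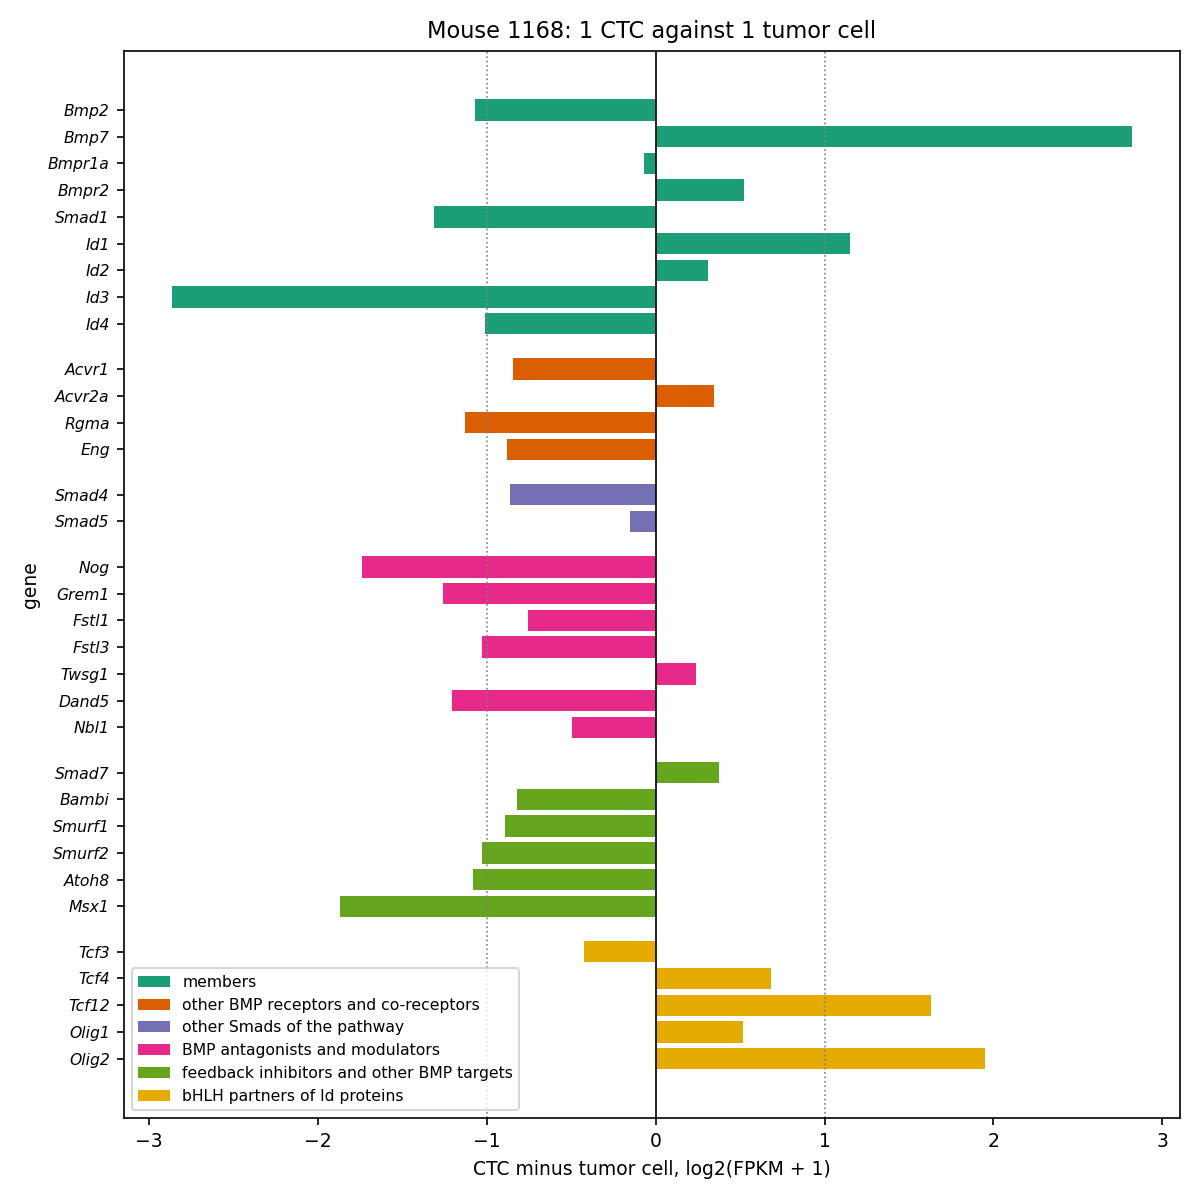
Difference between both cells of mouse 1168, CTC minus tumor cell, on the log2(FPKM + 1) scale, for genes at 1 FPKM or more in either cell, coloured by list, with dotted lines at a difference of 1. Bmp7 and Id3 lie at the ends of the range among the 10 genes, at 2.82 and -2.86, and the bHLH genes lie to the right except Tcf3.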

How the data were processed

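RNA of 3 CTCs and 3 tumor cells was amplified in rounds of reverse transcription and in vitro transcription and sequenced from stranded libraries, per the labels' protocols. The authors deposited FPKM values, 1 per gene name and cell. Tools were STAR 2.4.2a and Cufflinks 2.2.1 on build GRCm38, per the submitters' processing notes. The sources used here do not say how overlapping genes or multiply mapped reads were counted, and exons of Id4, Bmp4 and Bmpr1a overlap genes on the opposite strand. Of 45038 rows, 211 with a repeated name and 27 with a name turned into a date were left out.

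A model on log2(FPKM + 1) compared the groups in limma 3.58.1 (R 4.3.3), the variance following a trend on the mean. It took the 4165 genes that reached 1 FPKM in 3 cells. P-values were two-sided, adjusted after Benjamini and Hochberg, and called under 0.05. Single genes had an exact permutation test (scipy 1.17.1). Named were the 10 genes, list genes at 10 FPKM or more, and the 3 tested genes nearest to each tested member. Other list genes, and the marker genes, were named after their values were seen. The members and lists were chosen with earlier results of these data known. The bHLH list had a further gene that is not reported here and enters no count.

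Both cells of a mouse share the animal, so the mouse pairs them. After group means were removed, they correlated across genes at 0.178, 0.689 and 0.428 in mice 1157, 1168 and PDGF1. Low FPKM values move in steps of 1 fragment. The commonest ratios of values under 0.3 gave relative depths, and 1392 genes with 1 GENCODE M21 transcript of at least 3000 bases gave their scale. Both are estimates, so no counting interval is given. Nothing says that cells of a group were handled separately, so p-values measure the spread between these cells. Python 3.11.15, numpy 2.4.6, pandas 2.3.3 and matplotlib 3.10.9 did the rest.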

Additional observations from a re-analysis of the deposited data

How the results depend on the processing

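None of the 10 genes passed the threshold under any alternative run (limma): a pseudocount of 0.1, no filter, a filter at 5 FPKM, quantile normalization, scaling to the summed FPKM of tested genes, no variance trend, the replicate block, each cell left out, and mouse 1168 left out. The count of genes past the threshold over the whole table was 1 with the replicate block, which pairs the cells of a mouse, and 0 in the other fits. Of the 10, these fits tested only Id2 and Bmpr2, with the following exceptions. The fit with no filter tested all 10, and the filter at 5 FPKM tested none of them. Genes that were not tested could not pass. Scaling to the sum moved the median of all genes to -0.95. Differences turned under it to -0.24 for Bmp7, -0.57 for Id1 and -0.35 for Id2, all above that median. Quantile normalization turned Smad1 to 0.35 and Id3 to 0.13, and the pseudocount of 0.1 turned Id1 to -0.053. Without mouse 1168, Bmp7 was at -0.30, Smad1 at 0.19, Id1 at -0.13 and Id3 at 0.29. With each cell left out in turn, differences ran from -0.46 to 1.41 for Bmp7, -1.28 to 0.45 for Bmpr1a, -0.72 to 0.44 for Smad1, -1.27 to 1.43 for Id1, -1.41 to 2.23 for Id2 and -2.23 to 1.77 for Id3. Bmp2, Bmp4, Bmpr2 and Id4 kept their direction in all of these fits. The cause was not tested. Within mice, the pseudocount of 0.1 made Bmp4 the 1 gene lower by at least 1 in mouse 1157, and changed no other count. With the 95th percentile of receptors as background, an alternative chosen after seeing the data, the genes above it numbered 8 in the 1157 CTC, 5 in the 1157 tumor cell, 3 in the PDGF1 CTC and 1 in the PDGF1 tumor cell, against 8 in the 1168 CTC and 9 in its tumor cell. With the highest receptor gene, 0 did in the 1157 CTC, and 6 did in each cell of mouse 1168.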
